A study of Homo sapiens with 7 samples.

Results

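Total RNA was sequenced from 3 libraries of PF-382 cells in which STAG2 had been knocked out, named SA20, SB23 and SB37 in the labels, and these were set against each other. They are 3 of the 7 libraries of the series. Each library was compared with the mean of the other 2, and every gene that reached 5 CPM (counts scaled to a common library size) in any of them was kept. PF-382 is an established human line of T-cell acute lymphoblastic leukaemia (T-ALL). The knockout was made by delivering Cas9 protein bound to guide RNA, with no drug treatment. The 2 wild-type PF-382 libraries, SA19 and SA28, had no edit and are given beside the knockout values. The 2 remaining libraries are MOLT-14 cells and were not used here. The labels do not say whether the 3 knockout libraries are clones, pools or separate cultures of one pool, nor what the prefixes SA and SB mean. With 1 library set against 2 there is no replicate of a library, so ratios are given without a test. In such bulk RNA, fewer cells expressing a gene and less RNA per cell cannot be told apart.

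Cohesin is a ring of SMC1A, SMC3 and RAD21 that holds sister chromatids together and extrudes chromatin loops. STAG2 or its paralogue STAG1 binds the ring and helps to place it on chromatin. T-ALL arises from immature T-cell precursors in which the recombinase genes RAG1 and RAG2 can still be active and T-cell receptor genes are rearranged.

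The knockout libraries held 65237666 counts in SA20, 93932631 in SB23 and 81271191 in SB37, and the wild-type libraries 32596102 and 33129304. At these depths 3 counts make 0.0458 CPM in SA20, 0.0321 in SB23 and 0.0379 in SB37. STAG2 RNA was at 239 CPM in SA20, 166 in SB23 and 181 in SB37, against 315 and 537 in the wild-type libraries. It was therefore lowest in SB23 and lower in each knockout library than in both wild-type libraries, and RNA levels do not show the edit itself. STAG1 was nearly level at 129, 128 and 131 CPM. None of the 21 cohesin genes tested differed 2-fold from the mean of the other 2 in any library. Of all genes tested, 0.359% to 0.681% did, by library and direction, so few would be found in a list of this size. The median log2 ratio of the cohesin genes was 0.02 in SA20, -0.09 in SB23 and 0.01 in SB37. T-lineage markers were present in all 3, with CD3D at 388, 366 and 375 CPM, LCK at 981, 995 and 1242 CPM, and a summed level of 1993, 1923 and 2218 CPM over 9 markers. Of the 9, 8 reached 5 CPM in any knockout library. Summed over the list, markers of other cells were at 4.13, 5.92 and 18.3 CPM for B-lineage genes (7, mainly CD79A), 0.902, 1.42 and 0.812 for myeloid genes (8), 15.0, 14.6 and 12.3 for natural killer genes (5, mainly NCAM1) and 0.107, 0.342 and 0.139 for erythroid and megakaryocyte genes (5). Stromal and epithelial markers (7) summed to 330, 393 and 364 CPM, nearly all of it VIM at 322, 385 and 354 CPM, a filament protein that lymphocytes also express. Among defining markers, PAX5 and MS4A1 lay at or below 0.0214 CPM, and MPO, ELANE and COL1A2 had 0 counts in all 3 libraries.

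The 3 knockout libraries lay close to one another. In SA20 against SB23, 131 of 10496 genes differed at least 2-fold (1.25%). The numbers were 121 of 10456 for SA20 against SB37 (1.16%) and 99 of 10478 for SB23 against SB37 (0.945%). The wild-type pair differed 2-fold in 724 of 10876 genes (6.66%), and its libraries are the shallowest. Each knockout library differed from each wild-type library in 14.4% to 17.8% of genes. Across genes, Pearson's r of log2 CPM was 0.978 to 0.986 between knockout libraries and 0.928 between the wild-type libraries; genes are not independent replicates.

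Among the 10575 genes tested, few set 1 library apart, meaning at least 2-fold above or below each of the other 2. SA20 was above both others in 30 genes (0.284%) and below both in 41 (0.388%). SB23 was above both in 34 genes (0.322%) and below both in 17 (0.161%). SB37 was above both in 15 genes (0.142%) and below both in 17 (0.161%). These numbers cover 130 distinct genes (1.23% of those tested), 108 of them protein-coding, which is 1.09% of the 9905 protein-coding genes tested. In 21 of the 108 one library was above and another below, with the third between them. Against the mean of the other 2, SA20 had 38 genes at least 2-fold higher (0.359%) and 72 lower (0.681%), SB23 had 47 (0.444%) and 43 (0.407%), and SB37 had 39 (0.369%) and 44 (0.416%). These counts rest on the filter and fold, and the genes at the edge were CHAC1 at 5.00 CPM just inside and BBS12 at 4.997 CPM just outside. At the edge of the fold lay SLCO3A1, 1.002 from the nearer library on the log2 scale, and JUN, at 0.997, both in SB37. Log2 ratios and folds below were computed on CPM plus 0.1, which pulls the ratios of the lowest genes toward 0.

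**Figure D1:**
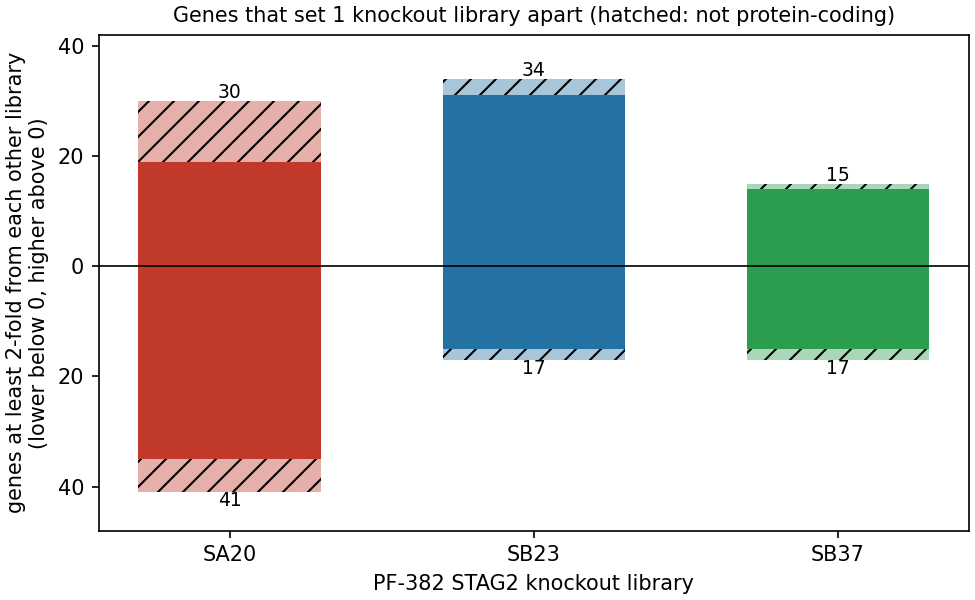
Number of genes at least 2-fold above (upward bars) or below (downward bars) each of the other 2 knockout libraries, by library. Solid parts are protein-coding genes and hatched parts are others. SA20 has 30 and 41 genes, SB23 34 and 17, and SB37 15 and 17.

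Some of these genes were near 0 in 1 library and plainly present in another, with the third library at either level or between. A rule chosen after the values were seen, at least 5 CPM in 1 knockout library and under 0.5 CPM in another, found 18 genes, all protein-coding and all with whole counts. They were lowest in SA20 in 9 cases, in SB23 in 5 and in SB37 in 4. Between the wild-type libraries the same rule found 36 genes, 27 of them protein-coding, and 3 genes were in both sets: GPC6, SGCE and SKAP1. Of the 18 genes, 6 were under 0.5 CPM in both wild-type libraries, 6 in 1 of them and 6 in neither. With the lower limit at 0.25 CPM the knockout libraries held 13 such genes, and with 1 CPM they held 22.

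**Figure D2:**
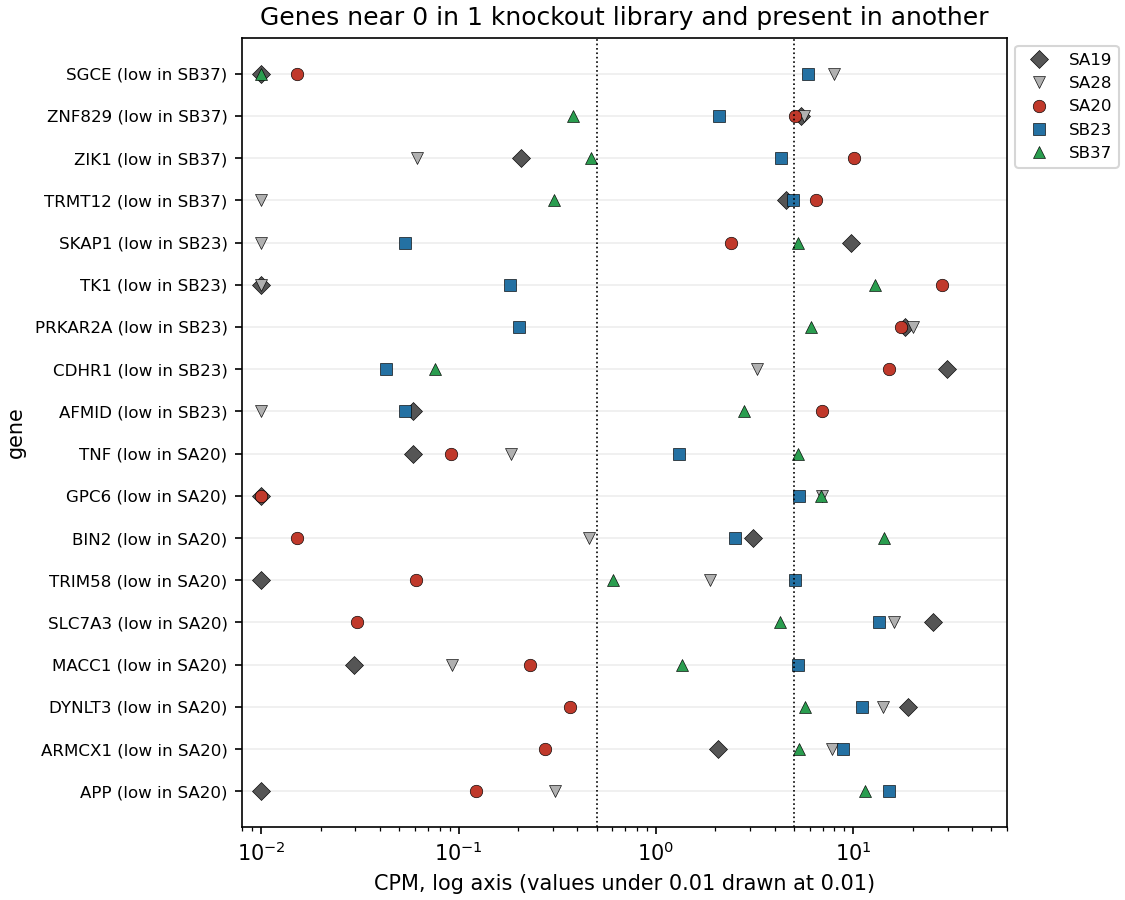
CPM on a log axis of the 18 genes that were under 0.5 CPM in 1 knockout library and at least 5 CPM in another (dotted lines), with 1 marker per library. The 9 genes lowest in SA20 stand at the bottom, the 5 lowest in SB23 in the middle and the 4 lowest in SB37 at the top, and the wild-type markers fall on either side.

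The promoters of 3 pairs of neighbouring genes that differed together, and of 2 single genes, are shown first. The values of these genes follow, and a link between sequence and values was not tested. The members of each pair start close to each other on opposite strands, and each printed window holds the start of the partner. The starts of each pair lie 158, 56 and 41 bases apart, and only the stretch between them lies before both genes. Each line gives the 250 bases before the RefSeq start on the strand of the named gene, 5′ to 3′, in GRCh38.p14. Capitals mark CG dinucleotides, the sites where DNA can be methylated, except in BST2. There they mark a match to GAAA, 2 bases of any kind and GAAA, the core of the element bound by interferon response factors. The windows lie at chr17:78187112-78187361 on the plus strand (AFMID, partner TK1), chr19:17405631-17405880 on the minus strand (BST2, partner BISPR), chr19:36916292-36916541 on the minus strand (ZNF829, partner ZNF568), chr3:48847875-48848124 on the minus strand (PRKAR2A) and chr21:26171129-26171378 on the minus strand (APP).
AFMID: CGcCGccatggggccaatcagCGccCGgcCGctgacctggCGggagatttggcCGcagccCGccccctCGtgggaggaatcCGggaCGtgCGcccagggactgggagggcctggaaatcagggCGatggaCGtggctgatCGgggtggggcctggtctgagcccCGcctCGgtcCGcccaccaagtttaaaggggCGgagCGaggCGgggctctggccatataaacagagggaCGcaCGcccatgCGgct
BST2: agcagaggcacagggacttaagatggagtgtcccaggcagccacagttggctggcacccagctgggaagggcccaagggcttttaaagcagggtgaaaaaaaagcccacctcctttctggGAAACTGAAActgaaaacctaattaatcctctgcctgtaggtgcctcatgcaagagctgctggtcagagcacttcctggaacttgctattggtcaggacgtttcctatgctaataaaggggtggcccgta
ZNF829: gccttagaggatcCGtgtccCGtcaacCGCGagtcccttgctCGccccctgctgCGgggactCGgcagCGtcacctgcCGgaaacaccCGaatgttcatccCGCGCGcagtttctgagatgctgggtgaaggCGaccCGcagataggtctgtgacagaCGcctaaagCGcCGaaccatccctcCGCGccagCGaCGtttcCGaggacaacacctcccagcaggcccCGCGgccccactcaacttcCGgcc
PRKAR2A: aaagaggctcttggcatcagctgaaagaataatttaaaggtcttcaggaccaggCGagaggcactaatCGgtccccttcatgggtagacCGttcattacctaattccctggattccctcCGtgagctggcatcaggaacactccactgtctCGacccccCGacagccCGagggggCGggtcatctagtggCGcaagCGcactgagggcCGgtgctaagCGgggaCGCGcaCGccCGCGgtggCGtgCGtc
APP: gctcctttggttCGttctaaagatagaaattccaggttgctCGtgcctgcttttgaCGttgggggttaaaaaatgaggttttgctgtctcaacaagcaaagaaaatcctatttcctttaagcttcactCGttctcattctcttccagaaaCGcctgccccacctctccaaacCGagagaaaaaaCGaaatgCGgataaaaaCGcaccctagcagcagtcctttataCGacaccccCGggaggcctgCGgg
The AFMID window holds 24 CG, ZNF829 26, PRKAR2A 19, APP 12 and BST2 2. In windows of 300 bases, from 250 before to 50 after the start, the median was 27 CG over the 7962 protein-coding genes tested that had a promoter in the RefSeq table. It was 19 over 84 of the 108 genes that set a library apart and 19 over 13 of the 18 near-0 genes, whose windows held 5 to 27. At least 10 CG were found in 92.1% of all windows, 79.8% of those of the 84 genes and 84.6% of those of the 13. That motif, on either strand, was in 225 of the 7962 windows (2.83%) and in 7 of the 84. Such a match is a description of letters, and neither methylation nor binding was measured.

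Head-to-head neighbours were the clearest case of genes differing together. Of 765 divergent pairs of tested genes, with starts at most 500 bases apart in GENCODE, 10 held a gene that set a library apart. In 4 of these both members did so in the same library and direction. TK1, the cytosolic thymidine kinase of nucleotide salvage, was at 28.0 CPM in SA20, 0.182 in SB23 and 12.9 in SB37. AFMID, arylformamidase of tryptophan breakdown, was at 6.91, 0.0535 and 2.79 CPM. Both genes were thus highest in SA20, between in SB37 and near 0 in SB23, with starts 158 bases apart on chromosome 17. In the wild-type libraries TK1 had 0 counts in both, which allows up to 0.0883 and 0.0920 CPM, and AFMID had 2 and 0 counts. SB23 therefore lay with the wild type at this pair, and SA20 and SB37 did not. SB23 was 72.9-fold below the mean of the others for TK1 (log2 ratio of raw rates -7.54 to -6.08, 95% exact binomial interval for counting error only) and 32.2-fold below for AFMID.

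BST2 and BISPR were the pair low in SA20. BST2 also lies head to head with MVB12A, with a gap of 74 bases, and MVB12A did not set a library apart. BST2, the interferon-induced membrane protein tetherin, was at 2.50 CPM in SA20, 13.8 in SB23 and 7.14 in SB37. BISPR, the lncRNA that starts 56 bases away on the opposite strand, was at 1.11, 5.64 and 2.70 CPM, with fractional counts, so reads were shared with another gene. BST2 was 4.06-fold lower and BISPR 3.53-fold lower in SA20 than the mean of the others. The 33 interferon-stimulated genes tested did not follow. BST2 alone of them set a library apart, where 1.23% of all genes tested did. The median over the 32 with a mean of at least 5 CPM was 0.01 in SA20, against 0.01 over all genes with such a mean. JAK3, the kinase paired with the common gamma chain of cytokine receptors, lies on the same stretch of chromosome 19. It was at 13.2, 32.2 and 41.4 CPM, also lowest in SA20 (2.78-fold), but unlike BST2 it was higher in SB37 than in SB23. Wild-type JAK3 was at 26.7 and 16.4 CPM.

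ZNF829 and ZNF568, KRAB zinc finger genes that start 41 bases apart on chromosome 19, formed the pair low in SB37. ZNF829 was at 5.08, 2.10 and 0.379 CPM in SA20, SB23 and SB37, and ZNF568 at 6.97, 3.69 and 1.53 CPM. Both were graded in the same order, with SA20 close to the wild-type libraries, which held 5.45 and 5.61 CPM of ZNF829 and 6.68 and 7.33 CPM of ZNF568. The last pair, SGCE and PEG10 on chromosome 7, is an imprinted pair expressed from the paternal copy. PEG10 was at 4.77, 79.3 and 19.7 CPM, and SGCE, which encodes epsilon-sarcoglycan, at 0.0153, 5.86 and 0 CPM. SB23 was highest for both. The wild-type libraries differed just as widely, at 1.59 and 91.8 CPM for PEG10 and 0 and 7.95 CPM for SGCE. SGCE had 1 count in SA20, 548 in SB23 and 0 in SB37, and the interval of the log2 ratio of SB23 to both others ran from 7.24 to 15.04. PEG10 was 6.44-fold higher in SB23 than the mean of the others.

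SA20 had more genes below both others than above them. The gene with the lowest ratio on this scale was BIN2, a BAR-domain membrane protein of leukocytes, at 0.0153 CPM in SA20 (1 count), 2.51 in SB23 and 14.3 in SB37. SLC7A3, a cationic amino acid transporter on the X chromosome, was at 0.0305, 13.4 and 4.24 CPM. BIN2 and SLC7A3 thus share a low in SA20 but are highest in different libraries. GPC6, the cell-surface proteoglycan glypican 6, had 0 counts in SA20, with 5.33 and 6.89 CPM in the others. That is at least 133-fold lower, taking 3 counts in SA20 as the floor. APP, the amyloid precursor protein, was at 0.122, 15.2 and 11.4 CPM (60.3-fold lower in SA20). SA20 here lay with the wild-type libraries, which held 0 and 0.307 CPM of APP.

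The opposite held for other genes low in SA20, where the wild-type libraries were high. CD84, a SLAM-family receptor of lymphocytes, was at 0.595, 7.57 and 9.74 CPM in SA20, SB23 and SB37, and at 16.5 and 16.9 CPM in the wild type. DYNLT3, a dynein light chain on the X chromosome, was at 0.366, 11.1 and 5.70 CPM, against 18.8 and 14.2. ARMCX1, an X-linked protein that acts in mitochondrial transport, was at 0.275, 8.81 and 5.27 CPM, against 2.06 and 7.82. The 3 X-linked genes of the near-0 set, DYNLT3, SLC7A3 and ARMCX1, were all lowest in SA20. The X chromosome held 16.7% of the 18 genes and 3.38% of the genes tested, and its median ratio in SA20 was 0.01. Wild-type levels were not high for TRIM58 and MACC1. TRIM58 was at 0.0610, 5.04 and 0.606 CPM, against 0 and 1.87 in the wild type. MACC1 was at 0.229, 5.23 and 1.35 CPM, against 0.0294 and 0.0920, so SA20 lay with the wild type. Among the knockout libraries SA20 was lowest and SB23 highest for both genes.

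Immune and lineage genes were among those low in SA20. TNF, the inflammatory cytokine, was at 0.0915, 1.30 and 5.22 CPM, against 0.0589 and 0.184 in the wild type, so SA20 lay with the wild type. DNTT, the terminal transferase that adds bases at V(D)J joints, was at 2.56, 6.42 and 11.2 CPM, with the wild-type libraries at 21.8 and 46.2. MYCN was at 2.09, 5.13 and 7.53 CPM and the myeloid transcription factor CEBPE at 1.51, 5.19 and 3.90 CPM. S1PR4, a lymphocyte sphingosine phosphate receptor, was at 11.2, 27.5 and 25.9 CPM. TNF, DNTT and MYCN share the order SA20, SB23, SB37, whereas CEBPE and S1PR4 were highest in SB23. HSPA1A, the inducible HSP70, was at 14.8, 31.4 and 58.3 CPM, against 390 and 675 in the wild type, but its counts were fractional, as its near-identical copy shares reads. HCP5, a lncRNA of the MHC region, was at 5.93, 16.0 and 23.3 CPM. HCP5, TNF and HSPA1A lie within a stretch of chromosome 6 with gaps of at most 237128 bases, and all 3 had the order SA20, SB23, SB37.

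CDHR1 was the protein-coding gene with the largest ratio in SA20. This photoreceptor cadherin was at 15.2 CPM in SA20, 0.0428 in SB23 and 0.0757 in SB37, or 998, 4 and 6 counts, and at 29.9 and 3.25 CPM in the wild type. PRKAR2A, a regulatory subunit of protein kinase A, was at 17.3, 0.203 and 6.11 CPM, with 18.2 and 19.97 CPM in the wild type. For PRKAR2A, SA20 was thus at the wild-type level, SB37 was between and SB23 was near 0. CR2, the complement receptor CD21, was at 167, 59.1 and 51.4 CPM and the transporter SLCO3A1 at 27.8, 12.1 and 5.97 CPM. The lncRNA AC000065.1 was at 15.1, 1.25 and 1.78 CPM. RPS16, a small-subunit ribosomal protein, was at 304, 145 and 112 CPM, and in the wild type at 295 and 363. RPS16 alone of the 80 cytosolic ribosomal protein genes tested set a library apart, a share close to the 1.23% of all genes tested.

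SA20 also held more ribosomal RNA. The mitochondrial ribosomal RNAs MT-RNR1 and MT-RNR2 were at 81.2 and 234 CPM in SA20, 17.5 and 66.0 in SB23, and 10.8 and 41.0 in SB37. Nuclear ribosomal RNA took 0.0112% of counts in SA20 and 0.00165% and 0.00124% in the others, and mitochondrial ribosomal RNA 0.0317%, 0.00831% and 0.00505%. The wild-type libraries held 0.0127% and 0.00945% of nuclear and 0.0754% and 0.0929% of mitochondrial ribosomal RNA, so SA20 lay between them for the first and below both for the second. These features are 10 of the 30 genes above both others in SA20, of which 8 are copies of the 5.8S gene with shared reads. How far ribosomal RNA was removed is not given in the sources used here, and its part in these values was not tested.

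In SB23 the genes above both others included a transcription factor and several surface proteins. KLF2, a transcription factor of T-cell quiescence and egress, was at 2.87, 9.10 and 2.74 CPM in SA20, SB23 and SB37. CD44, the hyaluronan receptor, was at 3.13, 6.66 and 2.41 CPM. THY1 was at 9.20, 24.9 and 11.03 CPM and NECTIN1, an adhesion molecule, at 2.17, 5.07 and 2.06 CPM. SB23 was high for all 4, while SA20 and SB37 lay close together. THY1, NECTIN1 and AP002956.1 lie together on chromosome 11. PTPRU, a receptor phosphatase, was at 1.98, 15.6 and 5.14 CPM and TMIGD2, a costimulatory receptor of naive lymphocytes, at 3.58, 24.1 and 11.04 CPM. SPARC and TIMP1, of the extracellular matrix, were at 9.85, 20.9 and 9.91 CPM and at 1.75, 5.13 and 2.49 CPM. Among the 29 homing, egress and adhesion genes listed, 17 were tested, and 2 set a library apart, KLF2 and CD44, both above both others in SB23, where 0.322% of all genes were.

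TRGC2, a constant segment of the T-cell receptor gamma chain, was above both others in SB23 and below both others in SA20. It was at 1.25 CPM in SA20, 9.04 in SB23 and 3.72 in SB37, and at 1.81 and 1.04 CPM in the wild type. The variable segments TRGV9 and TRGV10 followed the same order below the filter, at 0.122, 3.61 and 0.530 CPM and at 0.0458, 2.97 and 0.681 CPM. TRGC1, the near-identical other constant segment, was at 0.124, 0.5997 and 0.222 CPM, and TRGC2 counts were fractional. The 4 members of the gamma delta T-cell list with a mean of at least 5 CPM do not include TRGC2. Their median was -0.13 in SA20, -0.70 in SB23 with 3 below 0, and 0.40 in SB37 with all 4 above 0. Of all protein-coding genes with such a mean, 58.2% were below 0 in SB23 and 50.0% in SB37. TRDC, the delta constant segment, had 0 counts in all 5 PF-382 libraries. The beta chain showed another order, with TRBV20-1 at 970, 670 and 699 CPM and TRBC2 at 2180, 1590 and 1646 CPM, highest in SA20.

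SYK, THEMIS and SKAP1 were below both others in SB23, while none of the 21 genes tested of the CD3 and T-cell receptor signalling list set a library apart (1.23% of all genes did), with a median of -0.09 in SB23. SYK, a kinase of antigen receptor signalling, was at 74.1, 22.8 and 84.0 CPM in SA20, SB23 and SB37. THEMIS, which tunes T-cell receptor signals in thymocytes, was at 66.3, 22.6 and 82.6 CPM. SKAP1, an adaptor that links the receptor to integrins, was at 2.39, 0.0535 and 5.25 CPM. SYK and THEMIS were 3.46-fold and 3.28-fold lower than the mean of the others, and SKAP1 was near 0. PTCRA, the pre-T-cell receptor alpha chain, was at 55.8, 28.1 and 72.4 CPM, short of 2-fold below SA20. TOX2 was at 2.96, 1.24 and 5.15 CPM. In the wild type THEMIS was at 109 and 49.1 CPM and SYK at 25.9 and 13.9, so SB23 lay nearer to the wild type for SYK and below it for THEMIS.

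Zinc finger genes made up 5 of the 15 protein-coding genes below both others in SB23. ZNF595 and ZNF718, neighbours near the end of the short arm of chromosome 4, were at 34.6, 1.37 and 23.4 CPM and at 11.5, 1.44 and 5.49 CPM. ZNF486 was at 9.72, 1.12 and 3.15 CPM, ZNF544 at 21.8, 4.77 and 15.9 CPM and ZNF415 at 5.46, 1.59 and 4.50 CPM. All 5 were lowest in SB23 and highest in SA20. Over all 3 libraries, 9 of the 108 protein-coding genes apart had ZNF symbols (8.33%), against 3.70% of the protein-coding genes tested. No gene with a ZNF symbol was at least 2-fold below both others in SA20 or above both others in SB23 or SB37.

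SB37 was set apart by the fewest genes, with PREX2 first among those above both others. PREX2, a Rac exchange factor, was at 1.21, 0.834 and 13.7 CPM in SA20, SB23 and SB37, and at 2.09 and 0.736 CPM in the wild type. CD34, the progenitor antigen, was at 3.49, 4.50 and 10.2 CPM and the transcription factor ERG at 2.72, 3.26 and 7.96 CPM. RAG2 was at 5.46, 6.90 and 15.2 CPM, and RAG1, its partner in the recombinase, at 190, 153 and 304 CPM. RAG2 exceeded both others 2-fold and RAG1 did not, with a ratio of 1.77 to their mean, and the wild-type libraries held 52.3 and 4.51 CPM of RAG1. CD1C, a lipid-presenting molecule of cortical thymocytes, was at 2.21, 1.39 and 5.79 CPM. CD79A, a B-cell receptor subunit that T-ALL can express, was at 3.57, 5.64 and 17.8 CPM, and 35.2 and 6.57 CPM in the wild type. Of the other 6 B-lineage markers EBF1 was highest in these libraries, at 0.473, 0.192 and 0.4795 CPM, and the summed level of the list was 4.13, 5.92 and 18.3 CPM.

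DUSP6, a phosphatase induced by ERK signalling that dampens it, was at 7.20, 4.69 and 17.1 CPM. ETV5, a transcription factor of the same feedback group, was at 17.97, 10.1 and 34.5 CPM, which is 2-fold above the mean of the others but not above SA20. Of the 9 ERK feedback genes with a mean of at least 5 CPM, 8 had a ratio above 0 in SB37 and 7 a ratio below 0 in SB23. Of all protein-coding genes with such a mean, 50.0% were below 0 in SB37 and 58.2% in SB23. The medians were 0.04 in SA20, -0.47 in SB23 and 0.29 in SB37. MYC was the exception in SB37, at 203, 194 and 158 CPM. In the wild type DUSP6 was at 19.5 and 12.8 CPM and ETV5 at 134 and 131 CPM, so SB37 was the nearest to it for both.

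Of the protein-coding genes at least 2-fold below both others in SB37, TRMT12, which modifies transfer RNA, had the lowest ratio. It was at 6.47, 4.94 and 0.303 CPM in SA20, SB23 and SB37. ZIK1, a zinc finger gene, was at 10.0, 4.29 and 0.467 CPM, with 0.206 and 0.0614 CPM in the wild type. B3GAT1, which makes the CD57 epitope, was at 2.76, 6.87 and 0.618 CPM. TRMT12 and ZIK1 were highest in SA20 and B3GAT1 in SB23. CTBP2, a corepressor, was at 6.96, 11.5 and 0.795 CPM with fractional counts.

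Some programmes differed in small steps shared by most or nearly all members. For scale, of the 9688 protein-coding genes with a mean of at least 5 CPM, 46.8% were below 0 in SA20, 58.2% in SB23 and 50.0% in SB37. Replication-dependent histone genes, whose RNA lacks a poly(A) tail, had 64 members with a mean of at least 5 CPM. In SA20, 61 of them were below the mean of the other 2 libraries, with a median of -0.19. In SB37, 63 were above it, with a median of 0.20, and the median in SB23 was -0.03. Summed, they took 33703 CPM in SA20, 36422 in SB23 and 40929 in SB37. HIST2H2AA3 stood out at 71.0, 113 and 325 CPM, but it shares reads with an identical copy. Mitochondrially encoded genes ran the other way: all 13 with a mean of at least 5 CPM were above the others in SA20 and all 13 below them in SB37, with medians of 0.38 and -0.37. MT-ND1, a complex I subunit, was at 55.3, 50.1 and 33.8 CPM, and MT-ATP6, an ATP synthase subunit, at 75.1, 56.1 and 49.2 CPM. These 13 include the 2 ribosomal RNAs above. The 79 nuclear oxidative phosphorylation genes tested did not share this, with medians of -0.03, 0.01 and 0.03.

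The MHC class I and II list summed to 2236 CPM in SA20, 2177 in SB23 and 2750 in SB37. SB37 was thus highest, and SA20 and SB23 lay close together. All 14 genes with a mean of at least 5 CPM had a ratio below 0 in SB23 (median -0.23), and 12 had a ratio above 0 in SB37 (median 0.29). The high SB37 values are part of the mean against which SB23 is set. Of all protein-coding genes with such a mean, 58.2% were below 0 in SB23. HLA-B was at 134, 139 and 217 CPM in SA20, SB23 and SB37, and B2M, the light chain, at 1107, 1102 and 1421 CPM. HLA-E was at 60.7, 48.7 and 71.6 CPM. Class II genes were low, with HLA-DRA at 0.686, 0.620 and 0.227 CPM. Reads of HLA genes can be shared between them. V(D)J recombination genes had 11 of 11 members below 0 in SB23 (median -0.20) and 10 of 11 above 0 in SB37 (median 0.12). The stem and progenitor list had 8 of 9 members below 0 in SB23 (median -0.22) and 7 of 9 above 0 in SB37 (median 0.29).

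Ribosome biogenesis genes had 30 of 37 members above 0 in SA20 (median 0.13) and 27 of 37 below 0 in SB37 (median -0.10). Cytosolic ribosomal protein genes had 72 of 80 members below 0 in SB37 (median -0.09) and 62 above 0 in SB23 (median 0.07). The 46 DNA replication genes had medians of -0.01, -0.10 and 0.09, and the 41 mitotic genes -0.08, -0.02 and 0.12. The 16 Notch pathway genes had medians of 0.11, -0.03 and -0.21, with NOTCH3 at 161, 95.8 and 114 CPM and NOTCH1 at 295, 239 and 213 CPM. Both receptors were highest in SA20. Over all 10306 genes with a mean of at least 5 CPM the medians were 0.01, -0.03 and 0.00. The same 3 libraries enter each ratio, so a list that is low in 1 library tends to be high in another by construction.

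**Figure D3:**
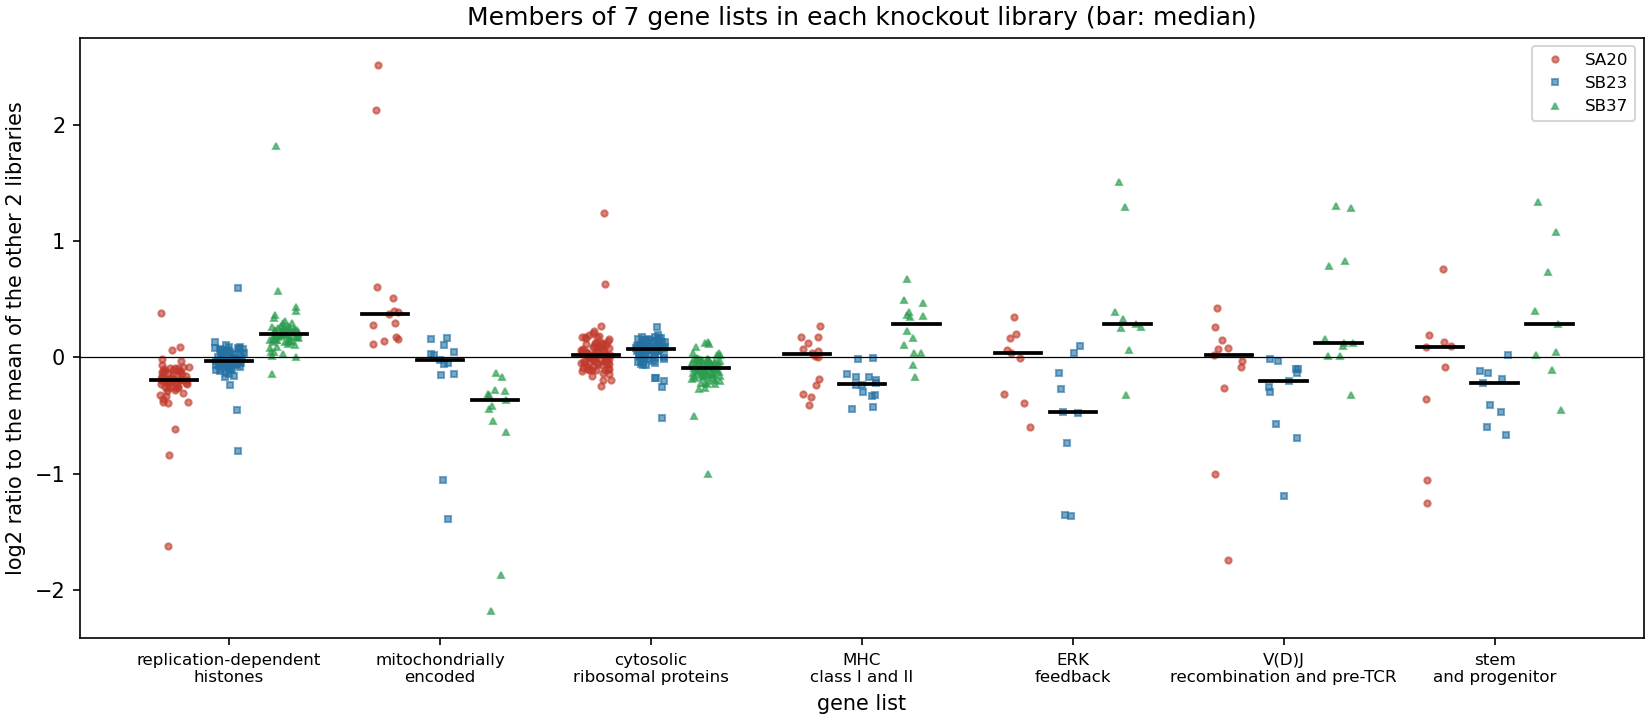
Log2 ratio of each member of 7 gene lists to the mean of the other 2 libraries, with 1 marker per gene and library and a bar at the median, for members with a mean of at least 5 CPM. Of 64 histone genes 61 lie below 0 in SA20 and 63 above 0 in SB37, and all 13 mitochondrially encoded genes lie the other way.

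Chromosome 18 set SB23 apart. Its 138 protein-coding genes with a mean of at least 5 CPM had a median log2 ratio of -0.29 in SB23, or 0.816 of the mean of the others, and 134 of them (97.1%) were below 0. In SA20 and SB37 the medians were 0.17 and 0.13. The next lowest chromosome in SB23 was 4, with -0.09. Against the mean of the wild-type libraries the chromosome 18 median was 0.16 in SA20, -0.11 in SB23 and 0.16 in SB37, while all chromosomes together gave 0.19, 0.15 and 0.17. SB23 was thus the knockout library away from the others. The wild-type libraries themselves differed on chromosome 18, with a median log2 ratio of SA28 to SA19 of 0.21, against 0.05 over all chromosomes. The shift ran along the whole chromosome. Windows of 25 consecutive genes past -0.3 merged into chr18:26454910-80247546 (GRCh38), whose 85 genes had a median of -0.33, and the 53 genes before it had -0.25. That stretch was picked by its low values, so its lower median follows from the choice. The arms of the chromosome were not compared. The lowest window was at -0.39. Among its genes BCL2, the apoptosis inhibitor, was at 46.0, 29.5 and 43.6 CPM in SA20, SB23 and SB37. PMAIP1, which encodes the BCL2 antagonist NOXA, was at 39.6, 26.6 and 46.9 CPM. TYMS, the thymidylate synthase of DNA precursor synthesis, lies near the start of the chromosome and was at 124, 89.2 and 110 CPM. The cohesin acetyltransferase ESCO1 was at 38.6, 31.4 and 35.9 CPM. All 4 were lowest in SB23, and none by 2-fold.

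**Figure D4:**
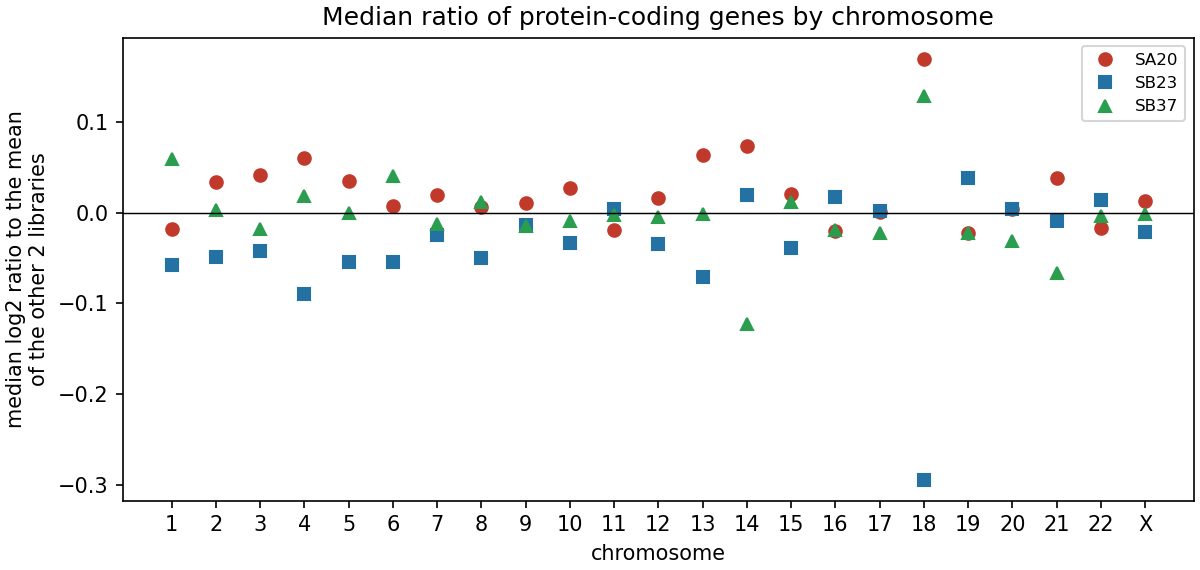
Median log2 ratio of protein-coding genes to the mean of the other 2 knockout libraries, for each chromosome and library. Chromosome 18 in SB23 (-0.29) lies farthest from 0, followed by chromosome 18 in SA20 (0.17) and SB37 (0.13) and chromosome 14 in SB37 (-0.12).

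Chromosome 14 and chromosome 1 set SB37 apart, each over part of its length. The chromosome 14 median was -0.12 in SB37, with 228 of 319 genes below 0. The position that best split the chromosome by least squares, chosen from the values, lay at PPM1A, which starts at 60245752. The 148 genes before it had a median of 0.02 and the 171 from it on had -0.23, or 0.853 of the others, with 161 of the 171 below 0. Against the wild type the same 171 genes were at 0.15 in SA20, 0.14 in SB23 and -0.06 in SB37. On chromosome 1 the best split for SB37 lay at SERBP1, which starts at 67407810. The 406 genes before it had a median of 0.14, with 321 above 0, and the 584 from it on had 0.00. Against the wild type those 406 genes were at 0.21, 0.23 and 0.34. SB37 therefore lay below the others on distal chromosome 14 and above them over the first part of chromosome 1. In SB23 the last 55 genes of chromosome 8, from DENND3, had a median of 0.12 against -0.08 before. On that stretch the wild-type libraries themselves differed, with a median log2 ratio of SA28 to SA19 of -0.42. Against their mean SA20, SB23 and SB37 were at 0.24, 0.42 and 0.35. Smaller rises in SB23 lay at other chromosome ends by the same kind of split. The first 29 genes of chromosome 11 were at 0.14 against -0.004 after them, and the first 73 of chromosome 16 at 0.09 against 0.002. The last 117 of chromosome 9 were at 0.07 against -0.04 before them. On these stretches the ratio of SA28 to SA19 was -0.33, -0.33 and -0.31. The last 25 genes of chromosome 12 went the other way in SB23, at -0.07 against -0.03. Chromosome copy number was not measured, and its part in these shifts was not tested.

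**Figure D5:**
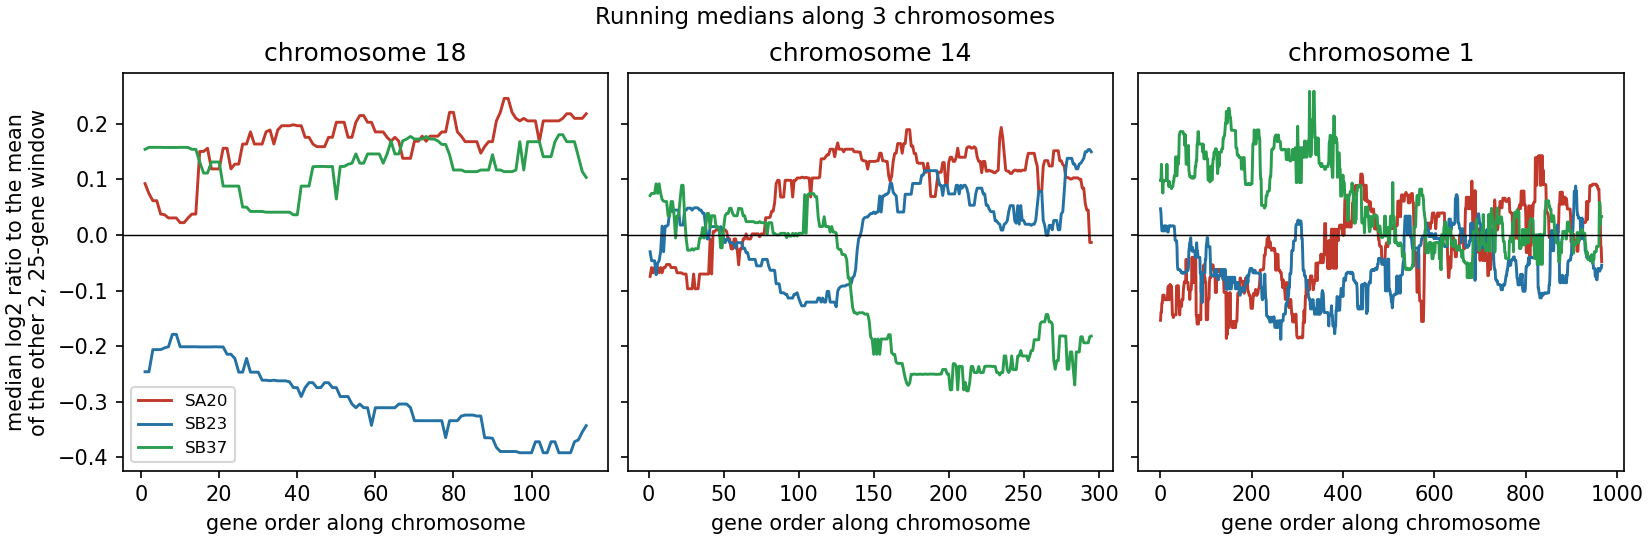
Running median log2 ratio to the mean of the other 2 libraries over 25 consecutive genes along chromosomes 18, 14 and 1, plotted by gene order, with 1 line per library. SB23 stays below 0 along chromosome 18, SB37 drops midway along chromosome 14 to a lowest window of -0.28, and SB37 lies above the others over the first part of chromosome 1, with a highest window of 0.26.

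The wild-type libraries did not side with 1 knockout library. Of the 54 protein-coding genes that set SA20 apart, both wild-type libraries were nearer to SA20 in 16, nearer to the others in 23 and divided in 15. For SB23 these were 12, 17 and 17 of 46 genes, and for SB37 they were 8, 14 and 7 of 29. The numbers count a gene once for each library it sets apart.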

How the data were processed

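Total RNA was sequenced from the 5 PF-382 libraries described above. STAR, RSEM and the build GRCh38 (hg38) are named per the submitters' processing notes, and versions, annotation release and strand setting are not given in the sources used here, so reads of overlapping genes on opposite strands cannot be told apart. The authors deposited one expected count per gene and library, RSEM's estimate of its reads with no scaling, per the file headers, and 92.8% to 93.3% of the values were whole. Fractional counts mean reads shared between genes, which held for 13 of the 108 protein-coding genes that set a library apart. Left out were 92 ERCC features and 45 second copies of pseudoautosomal genes, which leaves 60617 genes, of which 58542 had a GENCODE 29 position.

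Counts were scaled by TMM in edgeR 4.0.16 (R 4.3.3) over the 5 libraries and given as CPM. Log2 ratios are of (CPM + 0.1) to the mean of the other 2 libraries plus 0.1, for genes at 5 CPM or more in any knockout library. A called gene is at least 2-fold from each of the other 2, and no test was made. Intervals are exact binomial at 95% and, like the floor of 3 counts, allow for counting error alone, because PCR copies of a molecule were not told apart by identifiers. Chromosome medians and windows of 25 genes use protein-coding genes with a mean of at least 5 CPM.

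Genes were named by rule: in each library and direction the 10 protein-coding and 3 lncRNA genes with the largest ratios among those 2-fold from both others, the cohesin genes, RAG1, TRGC2, and up to 6 such members of each of 43 gene lists. Others, among them the near-0 genes, the near-threshold genes, list examples short of 2-fold and all positions of chromosome splits, were chosen after their values were seen. The members and the lists were chosen with earlier results of these data known. The scripts were tested on simulated data. Alternatives were other scalings (DESeq2 1.42.0 size factors among them), filters, pseudocount, whole counts only, thinned counts, a geometric mean and leaving out each library.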

Additional observations from a re-analysis of the deposited data

How the results depend on the processing

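No paired analysis was possible because the labels give the libraries no shared replicate numbers and no test was made. No ratio of a named gene 2-fold from the mean of the others changed sign under any alternative run, and 87 of these 89 were still 2-fold with a pseudocount of 1 CPM. The 5 scalings, thinned counts and the geometric mean moved no number of genes by over 1.5 times. The filter on low values mattered most, and the numbers follow in the order above the mean, below the mean, above each and below each of the other 2. With 1 CPM in any library they were 84, 216, 59 and 122 in SA20, 133, 107, 84 and 49 in SB23, and 87, 120, 41 and 45 in SB37. With no filter they were 196, 451, 125 and 218 in SA20, 334, 208, 198 and 81 in SB23, and 187, 257, 88 and 86 in SB37. With a mean of 5 CPM, SB23 had 24 above the mean and 14 above each, and SB37 29 below the mean and 7 below each. With a pseudocount of 1 CPM, SA20 had 27 below each, SB23 22 above each and SB37 9 below each. With whole counts only, SA20 had 25 above the mean and 18 above each, and SB37 28 below the mean. Leaving out 1 of the other libraries compares 2 libraries, so the 2 measures coincide: above, the numbers were 54 to 54 in SA20, 61 to 82 in SB23 and 47 to 77 in SB37, and below, 77 to 82, 47 to 54 and 54 to 61. Over the scalings the chromosome 18 median in SB23 was -0.29 to -0.27, the chromosome 14 median in SB37 -0.16 to -0.11, the histone median 0.16 to 0.21 in SB37 and the mitochondrial median 0.35 to 0.40 in SA20. Of the other medians printed, those that crossed 0 over the scalings stayed between -0.04 and 0.05: cohesin in SA20 and SB37, interferon-stimulated, DNA replication and chromosome X in SA20, and nuclear oxidative phosphorylation in SB37. Leaving out 1 library changed more signs. It kept the sign of 49 to 61 of 68 list medians and of 34 to 42 of 46 chromosome medians, by the library left out. Depth limits values near 0, where 3 counts make 0.0321 to 0.0458 CPM.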
